A study of Mus musculus with 108 samples.

Results

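The proteasome genes of cultured mouse germline stem cells were described here across 4 culture lines and their single cells. They were chosen by name, as every gene of the table whose symbol starts with Psm, then 1 letter from a to g, then a number. The rule matched 49 of 26218 genes, of which 48 encode subunits, activators, inhibitors or assembly chaperones of the proteasome. The remaining match, Psmc3ip, shares only its symbol with the family: it encodes a cofactor of meiotic recombination and is reported apart.

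The proteasome is the protease that breaks down proteins tagged with ubiquitin. Its barrel-shaped core is built from alpha rings, which gate the entrance, and beta rings, which hold the cutting sites, and a cap of ATPases and other subunits recognises, unfolds and feeds in the substrates. Interferon induces immune forms of the 3 catalytic beta subunits and the activator PA28, and male germ cells make a testis form in which one alpha subunit is exchanged and which binds the activator PA200.

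GSC-like cells (GSCLCs) are counterparts of germline stem cells grown from pluripotent stem cells by way of reconstituted testes, and germline stem cells (GSCs) are cultured spermatogonia that keep stem cell activity. GSCLC1 gave 30 cells and GSCLC4, which came from reconstituted testes held in culture at 34 °C over 3 weeks, gave 24. GSC1 gave 30 cells, of which 29 were used, and GSC2, from separate testes at postnatal day 7, gave 24. All 4 lines had the same background, 129/SvJcl x C57BL/6, and the same medium with GDNF, bFGF, LIF and EGF. The labels also name a reporter, AcrAct_EGFP, for these cells. Each type is represented by 2 lines, so the line was the unit of every test and the cells served to describe it.

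Each cell was 1 library of SC3-seq, which reads the 3′ ends of polyadenylated RNA, and the deposited values are reads scaled to the total on genes of each library (RPM). Since only 3′ ends are read, RPM was not divided by gene length when genes were set side by side. Estimated depth was 2.00 to 6.04 M reads per cell, with line medians of 3.19 M, 3.26 M, 3.72 M and 4.30 M in GSCLC1, GSCLC4, GSC1 and GSC2, and line medians of detected genes were 8607, 9866, 8811 and 9182. Of 10 listed germ cell markers, Dazl and Ddx4 were the highest in every line, at 3285 to 3521 and 781 to 986 RPM. Sall4 lay at 86.84 to 146.55 RPM, Zbtb16 at 55.92 to 86.39 RPM and Id4 at 20.06 to 37.58 RPM. Lin28a was lowest in every line, at 1.14 to 5.56 RPM. Of 6 Sertoli cell markers, Wt1 had 11.34 and 25.82 RPM in the GSCLC lines and 4.07 and 0.55 RPM in the GSC lines. Clu had 9.84 and 15.08 RPM in the GSCLC lines and 20.75 and 3.11 RPM in the GSC lines. Of 12 fibroblast markers, Col3a1 was at or near 0 and Col1a1 at 10.46 to 23.2 RPM in every line. Others were higher: Lgals1 had 74.28 and 185.22 RPM in GSCLC1 and GSCLC4 against 540.29 and 341.39 RPM in GSC1 and GSC2. Vim had 34.98 and 58.44 RPM in the GSCLC lines against 231.29 and 71.64 RPM in the GSC lines. Fn1 had 131.42 and 191.56 RPM in the GSCLC lines and 105.81 and 167.96 RPM in the GSC lines. The summed level of the 12 markers averaged 322 and 547 RPM in GSCLC1 and GSCLC4 against 1146 and 763 RPM in GSC1 and GSC2. One GSC1 cell was left out by the rule because an earlier look at these data had found few detected genes and many fibroblast RNAs in it. No 2 cells held identical values.

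The core was the most abundant part. Its 14 standard subunits lay between 193 and 629 RPM as means of the 4 lines, led by Psma2 at 629 ± 56.8, Psmb2 at 599 ± 43.7, Psma6 at 544 ± 53.5, Psmb4 at 541 ± 90.3 and Psmb1 at 533 ± 23.05 RPM (SD, n = 4 lines). Neighbours in that order mostly differed by less than their SD over lines. The 17 cap subunits lay lower, from Psmc5, an ATPase, at 49.4 ± 12.2 RPM to Psmd12, a lid subunit, at 276 ± 23.3 RPM.

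Summed over its 14 subunits, the core reached 5292 and 5326 RPM in GSCLC1 and GSCLC4 and 5525 and 5177 RPM in GSC1 and GSC2. The cap sums, over the 17 subunits that the name rule matched and no others, were 2589 and 2504 RPM in the GSCLC lines and 2455 and 2297 RPM in the GSC lines. Cap RNA per core RNA was therefore 0.489 and 0.470 in GSCLC1 and GSCLC4, against 0.444 and 0.444 in GSC1 and GSC2, with SDs over single cells of 0.081 to 0.110. The lines of the types did not overlap in this ratio, but the distance between them was smaller than the spread of cells. All 48 genes together took 9403 and 9329 RPM in the GSCLC lines and 9851 and 9283 RPM in the GSC lines, just under 1% of the reads on genes.

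**Figure D1:**
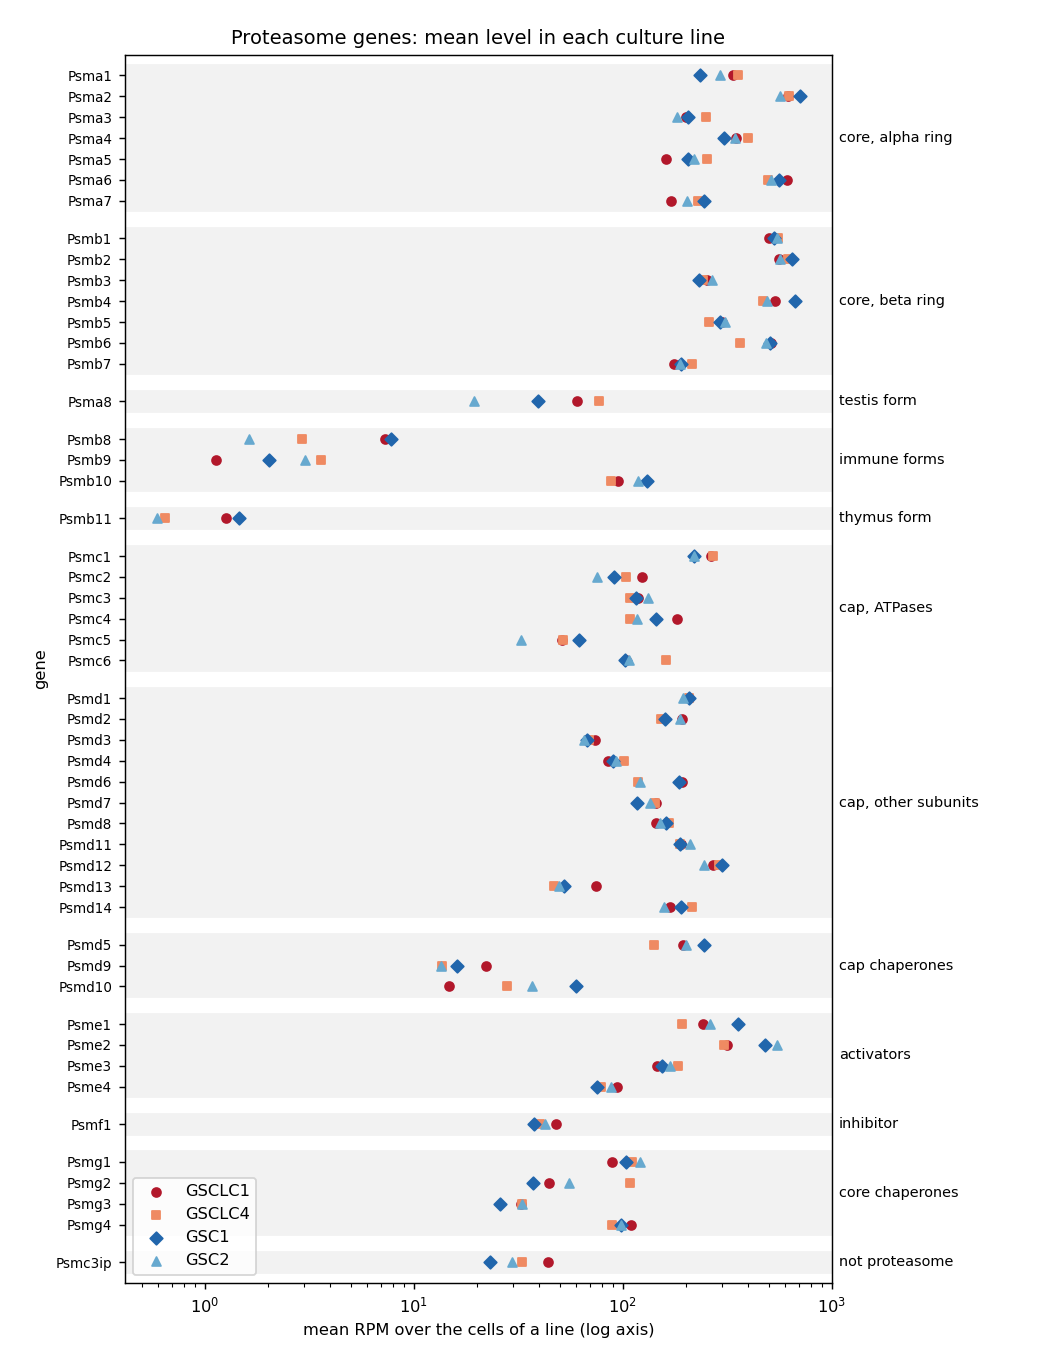
Mean RPM (log axis) of the 49 matched genes in each culture line, grouped by role; each symbol is the mean over the cells of 1 line. The core genes lie between 160.9 and 705 RPM with the 4 lines close together, whereas Psma8, Psmb8, Psmb9, Psmd10 and Psmg2 spread more widely than any core gene.

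The first question was whether cells grown from pluripotent stem cells carry the same proteasome genes as those taken from testes. A gene was tested, by limma on log2(mean RPM + 1), where 2 or more lines averaged at least 5 RPM, which left 47 of the 49 matches, including 46 of the 48 proteasome genes; Psmb9 and Psmb11 were below the filter. None of the 47 passed an adjusted p of 0.05, beside 10 of all 10519 tested genes (0.0951%). At an unadjusted p under 0.05 there were 5 (10.6%), beside 8.93% of all tested genes: Psma1 and Psma8 were higher in GSCLCs (4.26%, beside 5.07%), and Psme1, Psme2 and Psmd10 were lower (6.38%, beside 3.86%). The median log2 fold change of the 46 was 0.03, as was that of all tested genes, at 0.03.

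With 2 lines a type, a proteasome gene that missed the threshold was not shown to be equal between the types. The largest fold changes of the family were 1.27 and -1.17 on the log2 scale.

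Levels varied less between lines than those of other genes. From the lowest to the highest of the 4 lines, the mean RPM of 30 of the 47 matches (63.8%) differed by less than 1.5-fold on the log2(RPM + 1) scale, against 31.2% of all tested genes. The median level of the 46 proteasome genes was 168.3 RPM and that of all tested genes 35.7 RPM, and the part of level in this difference was not tested. All 7 standard beta subunits stayed within 1.43-fold, and Psmd1, a scaffold of the cap base, within 1.07-fold.

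Among the 7 standard alpha subunits, which form the gated outer rings, Psma1 had the highest log2 fold change. It had 338 and 355 RPM in GSCLC1 and GSCLC4, against 234 and 293 RPM in GSC1 and GSC2, and the types did not overlap (log2 0.40 ± 0.18 SE, adjusted p = 0.555). Psma7, the alpha subunit that the testis form replaces, had 169.8 and 229 RPM in the GSCLC lines and 246 and 203 RPM in the GSC lines (log2 -0.18 ± 0.21, adjusted p = 0.871). Over the 7 standard alpha genes, 4 log2 fold changes were positive and 3 negative, with a median of 0.04.

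Of the 7 beta subunits, 1 had a positive and 6 a negative log2 fold change, all between -0.20 and 0.05. Psmb5, which carries the chymotrypsin-like site, had 300.1 and 259 RPM in GSCLC1 and GSCLC4 and 292 and 310.1 RPM in GSC1 and GSC2 (log2 -0.11 ± 0.18). Psmb6, with the caspase-like site, had 511 and 363 RPM in the GSCLC lines and 505 and 485 RPM in the GSC lines (log2 -0.20 ± 0.18). Psmb7, with the trypsin-like site, had 176.9 and 216 RPM in the GSCLC lines and 191 and 188 RPM in the GSC lines (log2 0.05 ± 0.20). The lines of the 2 types overlapped for each of these 3 genes, and their adjusted p-values were 0.919, 0.812 and 0.973.

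No cap subunit passed the test. Of the 17 subunits 13 had a positive log2 fold change, with a median of 0.10, and 5 had both GSCLC lines above both GSC lines, a position held by 21.4% of all tested genes. The ATPases, which unfold the substrate, had 5 of 6 positive values and a median of 0.25. Psmc2 led them, with 123 and 104 RPM in GSCLC1 and GSCLC4 against 90.9 and 75.4 RPM in GSC1 and GSC2 (log2 0.45 ± 0.25, adjusted p = 0.644), and Psmc3 was the exception, with 118.5 and 108.5 RPM in the GSCLC lines and 116.1 and 131.9 RPM in the GSC lines (log2 -0.12 ± 0.23, adjusted p = 0.931).

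The 11 other cap subunits stayed between -0.08 and 0.20. Psmd13, a lid subunit, was highest with 74.6 and 46.8 RPM in the GSCLC lines and 52.6 and 49.9 RPM in the GSC lines, a difference carried by GSCLC1 alone (log2 0.20 ± 0.32, and -0.13 without that line). Psmd11, another lid subunit, was lowest with 190.2 and 187 RPM in the GSCLC lines and 188 and 210.3 RPM in the GSC lines (log2 -0.08 ± 0.19, and 0.0047 without GSC2). Neither passed, with adjusted p-values of 0.917 and 0.9499.

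**Figure D2:**
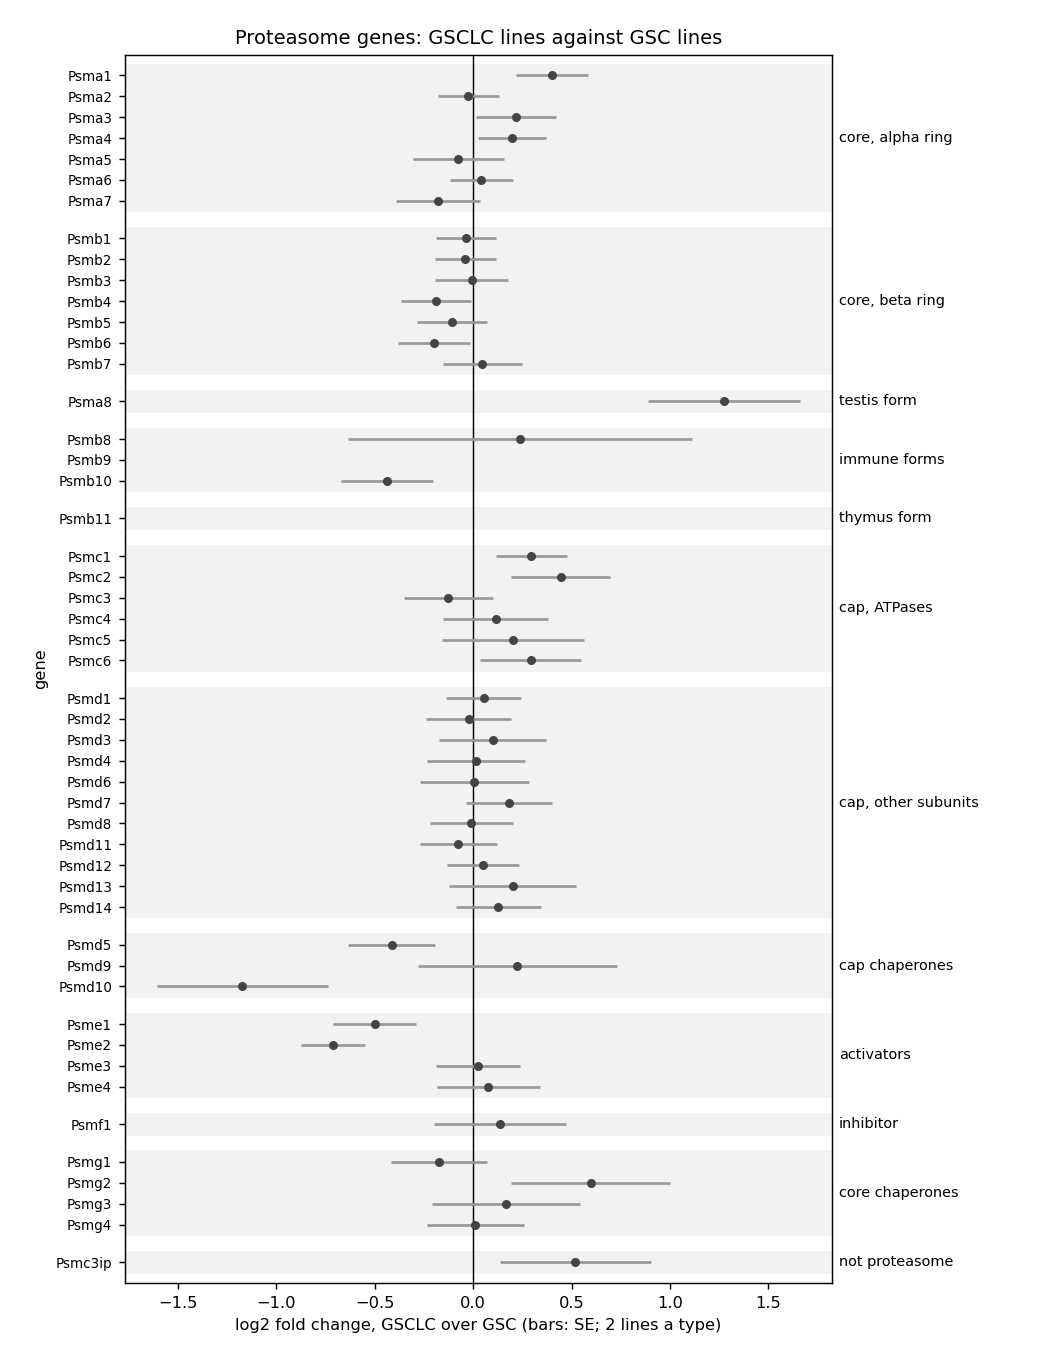
Log2 fold change of GSCLC over GSC lines for the 47 tested matches, with the limma standard error as bars and 2 lines a type; Psmb9 and Psmb11 were not tested and have no point. Core and cap genes cluster around 0, while Psma8 lies at 1.27, Psmd10 at -1.17 and Psme2 at -0.71.

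Psme1 and Psme2 encode the alpha and beta subunits of PA28, a ring that opens the core and that interferon induces. Psmb10 encodes the immune form of Psmb7. All 3 had both GSCLC lines below both GSC lines, as did 17.6% of all tested genes. They are shown with their promoter windows because the 2 family pairs with the highest mean rank correlation over cells lie among them. The windows run from 250 bases before to 50 after the annotated start, in RefSeq's annotation of GRCm38.p6. Capitals mark a match to the interferon-response motif, GAAA and again GAAA with any 2 bases between, searched on both strands. Psme2 has another annotated start, whose window, chr14:55590972-55591271 on the minus strand, is not shown. That window held no match to this motif either.
Psme1, chr14:55578244-55578543, plus strand: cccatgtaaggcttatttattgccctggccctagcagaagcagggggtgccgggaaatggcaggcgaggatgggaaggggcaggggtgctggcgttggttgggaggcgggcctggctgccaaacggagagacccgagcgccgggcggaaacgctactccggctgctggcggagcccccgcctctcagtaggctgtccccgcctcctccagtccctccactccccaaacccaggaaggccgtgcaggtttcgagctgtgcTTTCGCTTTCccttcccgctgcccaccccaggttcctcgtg
Psme2, chr14:55591052-55591351, minus strand: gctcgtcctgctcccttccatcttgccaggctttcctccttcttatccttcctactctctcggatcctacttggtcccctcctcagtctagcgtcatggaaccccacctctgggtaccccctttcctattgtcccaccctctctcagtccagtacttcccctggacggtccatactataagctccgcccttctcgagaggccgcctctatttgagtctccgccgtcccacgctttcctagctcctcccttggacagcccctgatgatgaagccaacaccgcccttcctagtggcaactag
Psmb10, chr8:105938343-105938642, minus strand: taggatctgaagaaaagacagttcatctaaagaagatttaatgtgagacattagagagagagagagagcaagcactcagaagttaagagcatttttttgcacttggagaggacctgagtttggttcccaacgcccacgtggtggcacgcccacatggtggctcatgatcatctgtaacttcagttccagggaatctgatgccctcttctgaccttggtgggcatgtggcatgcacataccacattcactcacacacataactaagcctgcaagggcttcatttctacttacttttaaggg
Of the 41 matched genes with a promoter window in that set, 5 held the motif (Psmb3, Psmd4, Psmd9, Psme1 and Psmg4), or 12.2%, against 3.99% of 27025 genes. The antioxidant-response motif TGACNNNGC was found for 6 of the 41 (14.6%, against 14.0% of genes) and the motif TTCNNNGAA for 3 (7.32%, against 9.55%), among them Psmb8. A match is a string of letters in this window and not a measured site, and Psme1 and Psme2 lie near each other on chromosome 14.

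Psme2 had 317 and 307 RPM in GSCLC1 and GSCLC4, against 478 and 546 RPM in GSC1 and GSC2. The 2 types did not overlap, with means of 312 ± 7.42 and 512 ± 47.7 RPM (SD, n = 2 lines each), a log2 fold change of -0.71 ± 0.16 and an adjusted p of 0.219, the lowest of the family. In single cells, Psme2 had a lowest, median and highest value of 1.05, 240.02 and 962 RPM in GSCLC1 and 21.4, 282 and 608 RPM in GSCLC4, against 118.8, 399 and 1334 RPM in GSC1 and 41.5, 604 and 1063 RPM in GSC2. Cells of all 4 lines overlapped, and every cell had reads of the gene. The GSC1 cells fall into 2 runs of serial numbers, and the log2 fold change was -0.72 with the lower run alone and -0.70 with the upper.

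Psme1 followed with 242 and 193 RPM in GSCLC1 and GSCLC4, against 358 and 261 RPM in GSC1 and GSC2 (log2 -0.50 ± 0.21, adjusted p = 0.534). GSC1 stood highest and the distance between GSCLC1 and GSC2 was small, so that without GSC1 the log2 fold change was -0.27. Summed, PA28 alpha and beta reached 559 and 500.3 RPM in the GSCLC lines and 837 and 807 RPM in the GSC lines. The other activators showed no such distance. Psme3, the nuclear PA28 gamma, had 146.7 and 183.6 RPM in the GSCLC lines and 154.1 and 168.6 RPM in the GSC lines (log2 0.03 ± 0.21, -0.0083 under median-of-ratios scaling), and Psme4, PA200, had 94.1 and 78.4 RPM in the GSCLC lines and 75.1 and 88.2 RPM in the GSC lines (log2 0.08 ± 0.26), with adjusted p-values of 0.988 and 0.962.

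Psmb10 had 95.4 and 88.2 RPM in GSCLC1 and GSCLC4, against 130.7 and 118.8 RPM in GSC1 and GSC2 (log2 -0.44 ± 0.23, adjusted p = 0.624). Its RNA was found in all but 4 cells. The other immune forms were low and found in few cells. Psmb8, which takes the place of Psmb5, had 7.27 and 2.92 RPM in the GSCLC lines and 7.83 and 1.63 RPM in the GSC lines, with reads in 6 of 30, 5 of 24, 7 of 29 and 4 of 24 cells (log2 0.24 ± 0.87, adjusted p = 0.967), and 1 GSCLC1 cell alone held 194 RPM. Psmb9, which takes the place of Psmb6, averaged 1.14 and 3.62 RPM in the GSCLC lines and 2.03 and 3.01 RPM in the GSC lines, with reads in 8 of 30, 10 of 24, 9 of 29 and 8 of 24 cells. At 5 RPM or more, both were found in at most 16.7% of the cells of any line.

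Immune forms thus made up 9.51% and 10.2% of the catalytic beta RNA in GSCLC1 and GSCLC4 and 12.5% and 11.2% in GSC1 and GSC2, almost all of it Psmb10. Per pair, Psmb10 held 35.04% and 29.02% of the RNA of Psmb10 and Psmb7 in the GSCLC lines and 40.7% and 38.8% in the GSC lines. Psmb8 held 2.37% and 1.11% of the RNA of Psmb8 and Psmb5 in the GSCLC lines and 2.61% and 0.524% in the GSC lines. For Psmb9 with Psmb6 the share was 0.222% and 0.986% in the GSCLC lines and 0.400% and 0.617% in the GSC lines. The share of immune forms in single cells ran from 0 to 27.2%, 0.118% to 26.9%, 0 to 37.4% and 0 to 28.6% in GSCLC1, GSCLC4, GSC1 and GSC2, so the lines overlapped widely.

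The interferon and class I presentation genes listed beside them did not show one direction. Of the 20 genes, 14 were tested, 7 were positive and 7 negative with a median of -0.05, and none passed. Isg15, Irf7, Ifit1, Ifit3 and Tap2, which interferon induces, were under 1 RPM in every line. Among the 7 positive genes, Stat2 and Irf9 had both GSCLC lines above both GSC lines (log2 1.33 and 1.09). H2-K1 and Tap1, at log2 0.70 and 0.74, had lines that overlapped. Among the 7 negative genes, Gbp2, Irf1, Ifi35, Erap1 and Tapbp had both GSCLC lines below both GSC lines. Of all tested genes, 17.6% lay below in this way and 21.4% above. The lines overlapped for the other negative genes, Gbp3 and Nlrc5. Summed over the 20 genes, the list averaged 550 and 565 RPM in GSCLC1 and GSCLC4 against 685 and 600 RPM in GSC1 and GSC2. Gbp2, an interferon-induced GTPase, had 34.2 and 40.2 RPM in GSCLC1 and GSCLC4 against 120.7 and 48.4 RPM in GSC1 and GSC2 (log2 -1.02, adjusted p = 0.491), and Irf1, the transcription factor, had 140.5 and 118.7 RPM in the GSCLC lines and 149.9 and 168.1 RPM in the GSC lines.

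Most fibroblast markers were lower in GSCLCs, as the PA28 genes and Psmb10 were, but not all. Of the 8 tested fibroblast genes 6 were lower in GSCLC lines, with a median log2 fold change of -1.09, and S100a6 passed the test at 54.4 and 40.1 RPM in GSCLC1 and GSCLC4 against 184.6 and 146.4 RPM in GSC1 and GSC2 (adjusted p = 0.0386). The other 2 had positive values: Postn had 7.61 and 26.8 RPM in GSCLC1 and GSCLC4 against 5.67 and 0.282 RPM in GSC1 and GSC2 (log2 2.40, adjusted p = 0.485), and Fn1 had a log2 fold change of 0.25. When the cells above 1000 RPM of summed fibroblast markers were left out (1, 1, 8 and 6 cells of GSCLC1, GSCLC4, GSC1 and GSC2), a choice made after seeing the data, the log2 fold change was -0.62 for Psme2, -0.41 for Psme1 and -0.31 for Psmb10. Both GSCLC lines still lay below both GSC lines for Psme2 and Psmb10. Psmb10 then had 97.3 RPM in GSCLC1 and 102 RPM in GSC2. For Psme1 they did not, with 238 RPM in GSCLC1 and 224 RPM in GSC2. The kept cells still averaged 297 and 519 RPM of fibroblast markers in GSCLC1 and GSCLC4, against 628 and 586 RPM in GSC1 and GSC2. The 6 blood markers summed to a mean of 6.81 and 17.5 RPM in GSCLC1 and GSCLC4 and 12.4 and 6.70 RPM in GSC1 and GSC2, with single cells up to 136.9 RPM. Of these, Tyrobp, Laptm5 and Cd74 were at 0 in every line, Coro1a lay between 5.34 and 8.65 RPM, and Ptprc had 0.843 and 9.74 RPM in the GSCLC lines and 3.78 and 0.0105 RPM in the GSC lines. Their part in these differences was not tested.

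**Figure D3:**
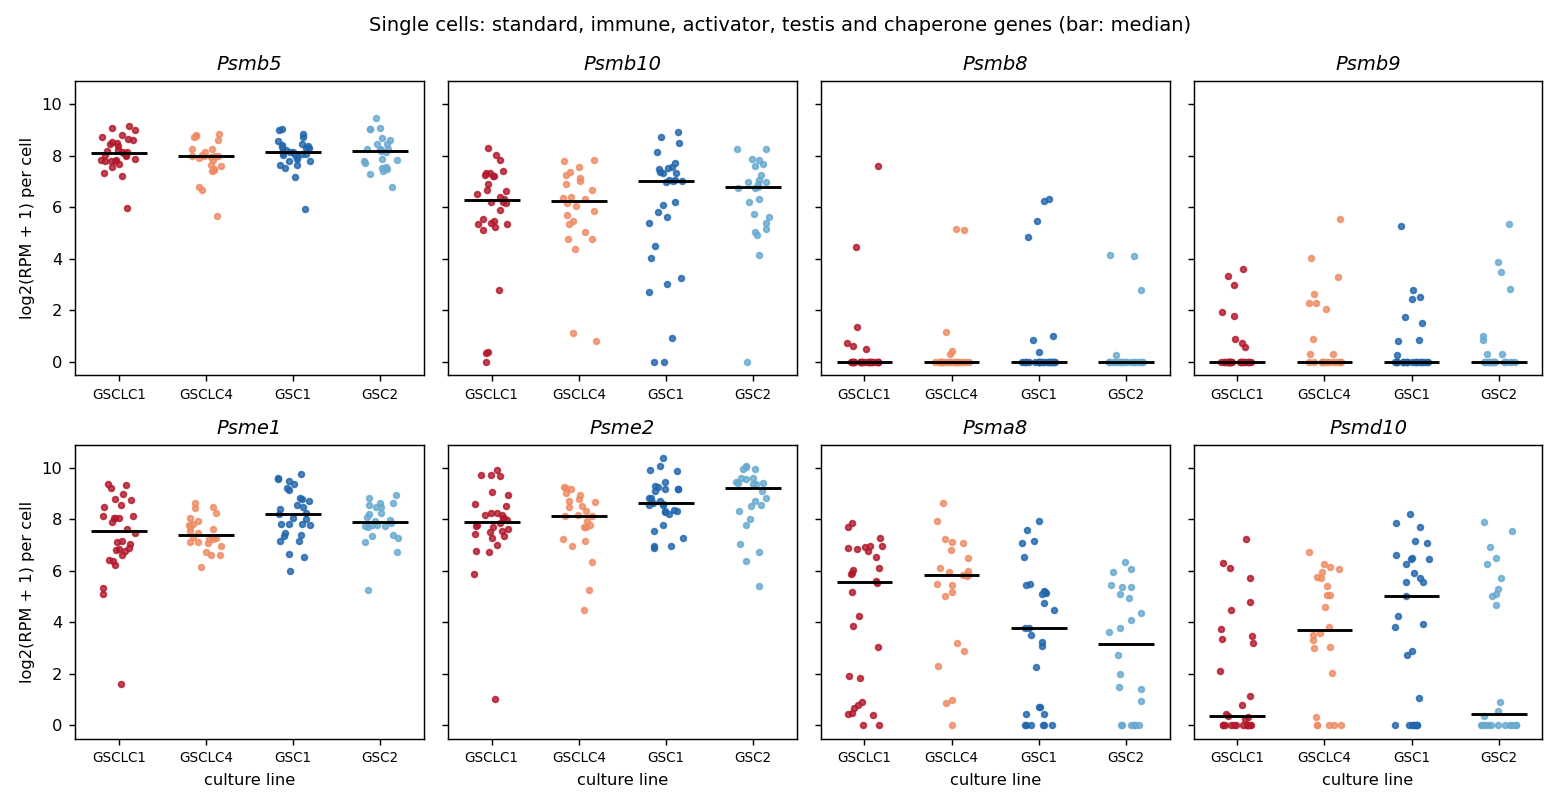
Log2(RPM + 1) of 8 genes in each cell used by culture line, with the line median as a bar. Psmb5 is present in every cell, Psmb10 in nearly all, and Psmb8 and Psmb9 in few, while Psme1 and Psme2 sit lower and Psma8 higher in the GSCLC lines, with overlap.

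Psma8, the testis form that takes the place of Psma7, had the largest positive log2 fold change of the family. It had 60.5 and 77.2 RPM in GSCLC1 and GSCLC4, against 39.2 and 19.4 RPM in GSC1 and GSC2 (log2 1.27 ± 0.38, adjusted p = 0.412). Its lowest, median and highest cells had 0, 46.4 and 230 RPM in GSCLC1 and 0, 56.6 and 397 RPM in GSCLC4, against 0, 12.6 and 247 RPM in GSC1 and 0, 8.41 and 80.3 RPM in GSC2. Medians were higher in both GSCLC lines, and reads of the gene were present in 28 of 30, 23 of 24, 23 of 29 and 17 of 24 cells. The 2 GSC lines also differed by 1.97-fold, and without GSC2 the log2 fold change was 0.78. With 1 run of GSC1 cells at a time it was 1.05 for the lower and 1.53 for the upper run.

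Of the RNA of Psma8 and Psma7 together, Psma8 held 26.3% and 25.2% in GSCLC1 and GSCLC4, against 13.8% and 8.74% in GSC1 and GSC2. In single cells this share ran from 0 to 100% in both GSCLC lines, and to 85.5% and 47.8% in GSC1 and GSC2. Cells at the ends of that range include some in which 1 of the 2 RNAs gave no read. Markers of spermatocytes lay with it in part: 5 of 6 tested genes were positive and none passed. Stag3, a cohesin subunit, had 204 and 218 RPM in the GSCLC lines and 134.5 and 104.6 RPM in the GSC lines. Stag3 was at log2 0.82 (adjusted p = 0.314), and Hormad1, at 0.77, also had both GSCLC lines above both GSC lines. The lines of the types overlapped for Sycp1, Sycp2 and Sycp3 (log2 0.51, 0.15 and 0.31) and for Dmc1, which was negative (log2 -0.16). Of the 3 spermatid genes on the list, Prm1 and Acrv1 were at 0 in every line, and Tnp1 had 0 and 4.24 RPM in GSCLC1 and GSCLC4 and 0 and 3.05 RPM in GSC1 and GSC2. Over the cells of a line, Psma8 and the summed spermatocyte and spermatid list had a Spearman rho of 0.36, 0.04, 0.17 and 0.26 in GSCLC1, GSCLC4, GSC1 and GSC2; their part in the difference was not tested.

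Psmb11, the form used in the thymus, was listed at 1.26 and 0.643 RPM in the GSCLC lines and 1.46 and 0.591 RPM in the GSC lines. Although all but 7 cells had a value above 0, 77% of these values were not whole reads within 0.05 read and none exceeded 4.48 RPM, so the level is uncertain. Values that were not whole also made up 41.1% for Psmb5, 41.1% for Psmc6 and 31.8% for Psmb1, and at most 15% for the other 44 proteasome genes.

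From the lowest to the highest line, the 3 chaperones that assemble the cap differed by a median of 1.72-fold, against 1.24-fold for the 17 cap subunits. All tested genes differed by a median of 1.77-fold, and the 4 core chaperones by 1.31-fold. Psmd10, gankyrin, which guides the ATPase ring, had 14.7 and 28.0 RPM in GSCLC1 and GSCLC4 and 60.1 and 36.9 RPM in GSC1 and GSC2 (log2 -1.17 ± 0.43, adjusted p = 0.479). Its lowest, median and highest cells had 0, 0.278 and 148.7 RPM in GSCLC1 and 0, 12.2 and 105.5 RPM in GSCLC4, against 0, 31.95 and 296 RPM in GSC1 and 0, 0.369 and 235 RPM in GSC2. The line medians did not follow the types, and the mean of log2 values over cells gave -0.64. Psmd5, another chaperone of the cap base, had 195 and 141.7 RPM in the GSCLC lines and 244 and 201 RPM in the GSC lines (log2 -0.41 ± 0.22, adjusted p = 0.624), whereas Psmd9 had 22.1 and 13.6 RPM in the GSCLC lines and 16.04 and 13.5 RPM in the GSC lines (log2 0.23 ± 0.50, adjusted p = 0.941).

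Among the core chaperones, Psmg2 had 44.6 RPM in GSCLC1 but 108.1 RPM in GSCLC4, against 37.4 and 55.7 RPM in GSC1 and GSC2 (log2 0.60 ± 0.40, adjusted p = 0.711, and -0.03 without GSCLC4). Its partner Psmg1 had 89.2 and 110.7 RPM in the GSCLC lines and 104.2 and 120.5 RPM in the GSC lines (log2 -0.17 ± 0.24, adjusted p = 0.901). The inhibitor PI31, from Psmf1, had 48.1 and 40.4 RPM in the GSCLC lines and 37.6 and 42.6 RPM in the GSC lines (log2 0.14 ± 0.33, adjusted p = 0.945). Psmc3ip, the recombination cofactor, had 43.8 and 33.2 RPM in the GSCLC lines and 23.3 and 29.7 RPM in the GSC lines (log2 0.52 ± 0.38, adjusted p = 0.741).

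Over the 47 tested matches, 14 (29.8%) had lines of the 2 types that did not overlap, beside 39.1% of all tested genes. Of these, 9 (19.1%) had both GSCLC lines above both GSC lines, beside 21.4% of all tested genes, and 5 (10.6%) had both below, beside 17.6%. Those below were Psme1, Psme2, Psmb10, Psmd5 and Psmd10.

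Lines of the same type differed by more than 1.5-fold in few of these genes, with 1 line on each side and therefore no test. Between GSCLC1 and GSCLC4 there were 9 of 47 (19.1%), beside 33% of all tested genes: 5 (10.6%, beside 12.8%) were higher and 4 (8.51%, beside 20.3%) lower in GSCLC1. Psmg2 was lowest relative to GSCLC4, by 2.39-fold, and Psmb8 was highest, with 7.27 RPM in GSCLC1 and 2.92 RPM in GSCLC4 (log2 1.08). Among genes with at least 20 RPM the ATPase Psmc4 was highest, with 182.1 RPM in GSCLC1 and 108.9 RPM in GSCLC4. Between GSC1 and GSC2 there were 5 of 47 (10.6%), beside 31.7%. All 5 were higher in GSC1 (beside 15.5% of all tested genes) and 0 were lower (beside 16.2%): Psma8, Psmc5, Psmd10, Psmb8 and Psmd6. Psmc5 had 61.7 RPM in GSC1 and 32.5 RPM in GSC2, a 1.87-fold difference.

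None of the listed proteasome partners and pathway genes that the name rule did not match passed the test. Of 31 listed partners, among them the ubiquitin receptor Adrm1, the core chaperone Pomp, the ubiquitin genes and the segregase Vcp, 30 were tested, 20 were positive and 10 negative with a median of 0.10. Of all 10519 tested genes, 5558 were positive and 4961 negative, with a median of 0.03. Nfe2l1, the transcription factor that raises proteasome genes when the protease is blocked, had 90.8 and 78.8 RPM in GSCLC1 and GSCLC4 and 77.3 and 86.5 RPM in GSC1 and GSC2. Ubqln4, a shuttle that carries ubiquitinated proteins to the cap, was the only 1 of the 30 at an unadjusted p under 0.05, beside 8.93% of all tested genes. It had 27.8 and 27.04 RPM in the GSCLC lines and 13.9 and 9.31 RPM in the GSC lines (log2 1.20).

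From cell to cell, the core genes varied less than the median of all tested genes. Of the 48 proteasome genes, 27 were detected in every cell used and 41 in at least 90%. The coefficient of variation over the cells of a line, averaged over the 4 lines, had a median of 0.464 over the 14 core genes, 0.679 over the 17 cap genes and 0.604 over the 4 activators, against 1.28 over all tested genes. Psmb1 was lowest at 0.313, followed by Psmb2 at 0.348 and Psmb4 at 0.378, and Psmb8 was highest at 3.45, ahead of Psmb9 at 2.87, Psmd10 at 1.58 and Psmd9 at 1.56. Spike-in RNAs that lay within the range of core levels had a median of 0.443 (5 RNAs). Spike-ins are added to each cell at a fixed amount. The median level was 327 RPM over the core genes and 35.7 RPM over all tested genes. The part of level in the lower variation of the core was not tested.

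**Figure D4:**
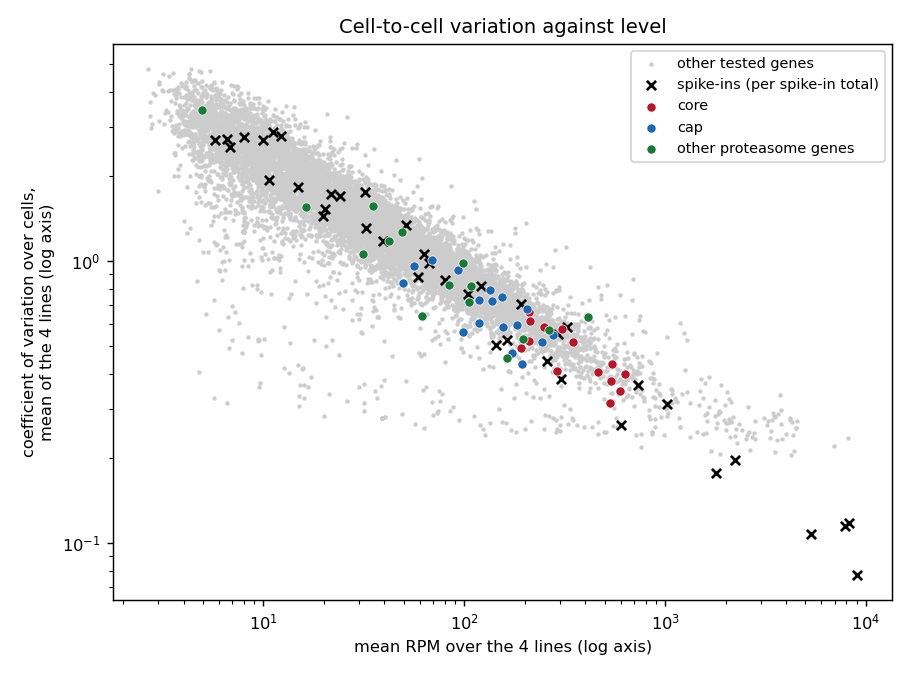
Coefficient of variation over cells (mean of the 4 lines) against mean RPM, both on log axes, for all tested genes, 46 proteasome genes and the spike-ins scaled to their own total. Core genes lie at high level and low variation, near the spike-ins of similar level, and Psmb8 lies at the upper left.

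Added up, the 14 core genes had a coefficient of variation of 0.157 and 0.154 over the cells of GSCLC1 and GSCLC4 and 0.191 and 0.219 over those of GSC1 and GSC2. The lowest and highest cells had 3985 and 7040 RPM of core RNA in GSCLC1 and 3969 and 7116 RPM in GSCLC4, against 3634 and 7275 RPM in GSC1 and 2799 and 7195 RPM in GSC2. Core and cap sums had a Spearman rho of 0.53, 0.14, 0.45 and 0.58 in GSCLC1, GSCLC4, GSC1 and GSC2. The core sum and the estimated read number had a rho between -0.29 and 0.12.

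Single pairs of genes were only loosely tied. The median Spearman rho over the 91 pairs of core genes was 0.06, 0.10, 0.07 and 0.15 in GSCLC1, GSCLC4, GSC1 and GSC2, against 0.01, 0.02, 0.01 and 0.01 over pairs of all tested genes. Genes in 1 cell share its library and depth, so these values are a description. By mean rho over the 4 lines, the genes outside the family most like the core sum were Gm17494 at 0.44, Ppia, the abundant prolyl isomerase cyclophilin A, at 0.43, Polr2e, an RNA polymerase subunit, at 0.40, Wdr46 at 0.40 and Prdx1, a peroxidase, at 0.38, where the median over all tested genes was 0.01.

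Out of 1035 pairs within the family, the 2 with the highest mean rho joined Psmb10 to the PA28 genes. Psmb10 and Psme2 had a rho of 0.22, 0.46, 0.40 and 0.55 in GSCLC1, GSCLC4, GSC1 and GSC2 (mean 0.41), and Psmb10 and Psme1 had 0.06, 0.53, 0.48 and 0.42 (mean 0.37). Psme1 and Psme2 themselves ranked 6, with 0.30, 0.04, 0.46 and 0.48. Both Psmb10 pairs were weakest in GSCLC1, and the PA28 pair in GSCLC4. The lowest pair was Psmf1 with Psma1, at a mean of -0.31.

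The PA28 sum also went with the summed interferon and class I list in single cells, at a rho of 0.42, 0.61, 0.24 and 0.56 in GSCLC1, GSCLC4, GSC1 and GSC2, and Psmb10 did so at 0.21, 0.59, 0.37 and 0.48. For the core sum the same values were -0.03, -0.18, -0.15 and 0.15. With the summed fibroblast markers the PA28 sum had 0.20, 0.32, 0.19 and 0.31 and Psmb10 had -0.08, 0.17, 0.29 and 0.40; the part of these markers was not tested further.

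**Figure D5:**
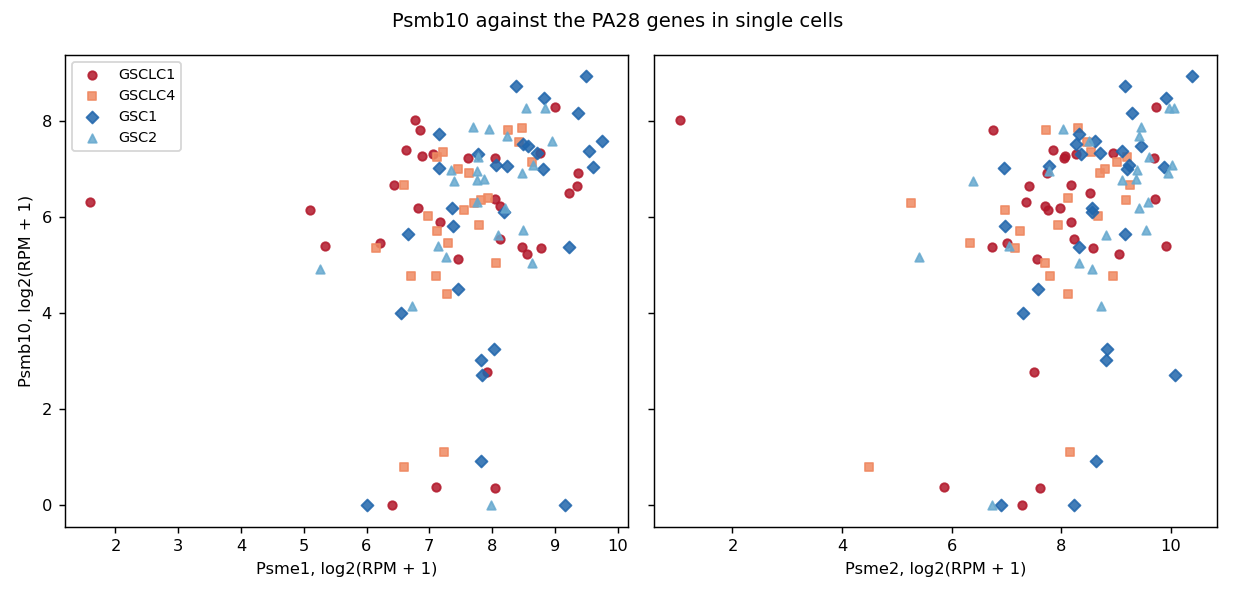
Log2(RPM + 1) of Psmb10 against Psme1 (left) and Psme2 (right) in every cell used, coloured by culture line. Cells without Psmb10 reads occur at various levels of both genes, and the cells highest in Psmb10 tend to lie to the right, as the mean rho of 0.37 and 0.41 describes.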

How the data were processed

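Per the file headers and labels, the authors deposited 1 table of expression signal in RPM for 26218 genes and 92 spike-in RNAs, with 1 column for each of 108 cells. The submitters' processing notes name the build mm10 and, as tools, Cufflinks 2.2.0, TopHat 1.4.1 and cutadapt 1.3. The counting of reads with several map positions was not given in the sources used here. The gene rows of a cell sum to between 1000640 and 1001485, and the spike-ins come on top and were left out of every gene test. The commonest value above 0 in a cell was taken as 1 read, which gives the estimated depth; by this measure 85.6% to 92.4% of values were whole to within 0.05 read, too few for a count model.

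Line values were means over cells (1 GSC1 cell left out), tested as log2(mean RPM + 1) with limma 3.58.1 in R 4.3.3 (lmFit, eBayes with a mean-variance trend, two-sided, Benjamini-Hochberg over 10519 genes, threshold 0.05). This scale understates changes of low genes. The labels do not say that the lines of a type came from separate donors in each case, so the spread between lines may be partly technical. In 10 simulated draws with 200 of 10519 genes changed, 24%, 65.2% and 96.1% of 2-, 4- and 16-fold changes were recovered and 5.96% of calls were false. The draws were independent normal values with the fitted variances, as the test assumes, so the false share does not check that assumption. Changed genes were picked at random from all tested genes, whose median SE was 0.391, beside 0.217 for the tested proteasome genes. Lists and cells were described without tests. Promoters came from RefSeq (GRCm38.p6), in which all 49 genes matched by identifier. Python 3.11.15, pandas 2.3.3 and scipy 1.17.1 were used.

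Named were the special forms, the activators, the catalytic subunits, Psma7, Psmc3ip and the highest and lowest log2 fold change of each role, and within a type up to 3 genes a direction with at least 20 RPM. The members, lists and tests were chosen with earlier results of these data known. Alternatives covered the pseudocount, filter, summary over cells, scaling, variance model, and leaving out cells or lines.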

Additional observations from a re-analysis of the deposited data

Results flagged for a closer look

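Psmd11, a lid subunit of the cap, had 509 RPM in the GSC1 cell that was left out, above every cell used, of which the highest had 457 RPM. It was picked out because the cell is outside every comparison. In the same cell the core sum was 2401 RPM, below the lowest other GSC1 cell at 3634 RPM and the GSC1 median of 5432 RPM, while the cap sum was 2297 RPM beside a GSC1 median of 2438 RPM. Its PA28 alpha and beta sum was 101.2 RPM, below the lowest other GSC1 cell at 248 RPM, and no immune form was detected. The cell had 5748 detected genes, against 7305 in the lowest other GSC1 cell. Its spike-ins summed to 91373.5 RPM, beside a GSC1 median of 42080 RPM. The part of library quality in these values was not tested.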

How the results depend on the processing

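No paired analysis was possible because the serial numbers of the cells are not shared between lines. The count of proteasome genes past the threshold was 0 in the main test (limma, 5 of 47 at an unadjusted p under 0.05) and 0 in each of the alternatives run, with 2 to 7 at an unadjusted p under 0.05. The count over all genes, 10, depended more on the setting. It was 3 with a pseudocount of 0.1, 20 with 10, 21 with a filter of 20 RPM, 4 and 3 with the lower and the upper run of GSC1 cells, and 5 without the cells above 1000 RPM of fibroblast markers, an alternative chosen after seeing the data. By limma it was 0 with no filter (1407 genes at an unadjusted p under 0.05) and 0 without the variance trend (874). Leaving out 1 line gave 3 (without GSCLC4) to 39 (without GSCLC1), with 5 without GSC1 and 12 without GSC2; the remaining line of a type is then assumed to vary like the other type. The cause of these shifts was not tested. The median log2 fold change of the proteasome genes moved to 0.1058 with means of log2 values over cells, where that of all tested genes was 0.15. With a pseudocount of 10, 3 proteasome genes passed 1.5-fold between the GSC lines and 5 between the GSCLC lines. As medians over cells, the share of immune forms was 7.40% in GSCLC1 and 7.395% in GSCLC4, against 11.5% in GSC1 and 9.66% in GSC2; from the lower and the upper run alone it was 10.3% and 14.2% in GSC1.

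Of 304 alternative log2 fold changes of the 22 named genes, 19 changed sign, in 12 genes, and none of these genes passed the threshold in any alternative. Psmb8 was -0.16 with means of log2 values and -0.63 to 0.78 over left-out lines. Psme3 was -0.0083 with median-of-ratios scaling and -0.1357 to 0.1864 over left-out lines, and Psme4 was -0.0112 with the lower run of GSC1 and -0.0536 to 0.2067. Psmb7 was -0.0407 with the lower run and -0.0961 to 0.1888. Without the cells high in fibroblast markers, Psmc3 was 0.0174, Psmf1 was -0.0003 and Psmd9 was -0.0325. Over left-out lines, Psmb6 ran from -0.4452 to 0.0455, Psma7 from -0.3936 to 0.0362, Psmd13 from -0.1294 to 0.5325, Psmd9 from -0.1043 to 0.5559 and Psmg2 from -0.0328 to 1.2269, and Psmd11 reached 0.0047. The direction of 10 of the 22 named genes did not change in any of the alternatives run. Among them, Psme1, Psme2 and Psmb10 ran from -0.73 to -0.27, -0.81 to -0.61 and -0.54 to -0.28. Psma8, Psma1 and Psmd10 ran from 0.78 to 1.76, 0.24 to 0.65 and -1.61 to -0.64. For these genes the lines of the types did not overlap. Leaving out a line or changing the pseudocount therefore could not have changed their sign. Counted at 5 RPM or more, Psma8 was found in 66.7% of GSCLC1 cells in place of 93.3%, and Psmd10 in 33.3% in place of 56.7%. Depth limits the genes under about 5 RPM, Psmb8 and Psmb9 among them.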
